A study of Mus musculus with 10 samples.

Results

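Of 208851 regions formed by merging the ATAC-seq peaks of 10 libraries, 15359 had a peak in every library, and 5481 of these lay more than 1 kb from the start and the end of every protein-coding gene. These 5481 always open regions away from gene ends, 2.62% of all merged regions, are described here. They were chosen by presence of a peak in all 10 peak lists and by position, so their presence in every list and their distance from gene ends are part of the rule and not results. They were compared with the 9878 regions that also had a peak in every list but reached within 1 kb of a gene end, and with 182326 regions away from gene ends with a peak in 1 to 9 lists. At the 1 kb limit, a region in Kank2 at 1001 bp and one in Adgrl2 at 1003 bp were just inside, and regions near Trim47 and in Dlk2, each at 1000 bp, were just outside.

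ATAC-seq uses a transposase that inserts sequencing adapters into DNA not covered by nucleosomes, so a peak marks open chromatin. The libraries came from 5 stages of reprogramming of mouse fibroblasts to pluripotent cells, with 2 libraries a stage, and all cells were of C57BL/6 x 129 background. MEF were embryonic fibroblasts of genotype OKSM Col1a1/M2rtTA ROSA26, kept without doxycycline. At Col1a1 they carry a doxycycline-inducible cassette with the coding sequences of OCT4, KLF4, SOX2 and MYC (OKSM), and at Rosa26 the M2rtTA activator that doxycycline switches on. DAY3, DAY6 and DAY9 were cells of that genotype after 3, 6 and 9 days in ESC medium with 1 ug/ml doxycycline and 50 ug/ml ascorbic acid. DAY6 and DAY9 cells were sorted for SSEA1, a surface antigen of pluripotent cells, and cells of the other stages were not sorted. ESC were the embryonic stem cell line V6.5, without the cassette, grown on irradiated feeder cells with LIF. Sorting therefore cannot be told apart from DAY6 and DAY9, nor the absence of the cassette from ESC.

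Open regions far from gene starts are usually read as enhancers, most of which are used in few cell types, or as sites of the insulator protein CTCF, many of which are occupied in most cell types. Other elements away from the outer ends of protein-coding genes can also be open: alternative promoters inside genes, promoters of non-coding RNA genes, and tRNA genes, which are transcribed by RNA polymerase III from promoter elements within the gene. Promoters of broadly expressed genes are often rich in G+C and in the dinucleotide CpG.

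The libraries differed in signal: the lists held 45497 to 88980 peaks, and the background pileup, the read pileup expected where there is no peak, ran from 2.33 to 8.32. The DAY3 libraries differed at the members by 1.30 times the variance that counting noise alone would give, and the DAY9 libraries by 1.40 times. Each of these pairs is therefore close to a single sample. They were not pooled, and counts over 10 libraries include both libraries of each pair. This ratio was 3.38 for DAY6, 5.69 for ESC and 12.0 for MEF, against 4.30 to 22.1 for the 40 pairs of libraries of different stages. The MEF libraries therefore differed more from each other than did some pairs of different stages. Whether the replicates come from separate cultures is not given per sample, and the design text calls them biological. Of 8 pluripotency marker genes, 0 and 2 had a peak at a gene end in the MEF libraries and 8 and 7 in the ESC libraries. Of 8 fibroblast markers, 7 and 6 had one in MEF and 5 in each ESC library, and none of 3 blood cell markers had one in any library.

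The members divide into those that hold a transcription start annotated in RefSeq and those that do not. A start of a RefSeq transcript, represented by the window from 250 bp before to 50 bp after it, lay inside 1216 members (22.2%). For 898 members (16.4%) it was the start of an internal transcript of a protein-coding gene and for 406 (7.41%) that of a long non-coding RNA (lncRNA) gene, and some members held both. Among the 182326 other regions away from gene ends, 1.24% held a start. The following windows are printed because they show the kinds of start found in members: internal starts of Stag1, a cohesin subunit, and Edem1, which takes part in the disposal of misfolded proteins of the endoplasmic reticulum; the lncRNA Chaserr beside Chd2; windows with a CTCF core motif, of the lncRNA Gm46218 in Echdc1 and of Nabp2, a single-stranded DNA binding protein; and internal starts whose region ranked higher (Scg3, a protein of secretory granules) or lower (Nr4a1, a nuclear receptor of the immediate early response) in ESC than in MEF. Sequences are from RefSeq, build GRCm38.p6, 5′ to 3′ on the strand of the transcript. Capitals mark matches, on either strand, to the CTCF core, NRF1 GCGCATGCG, YY1 AAGATGGC, AP-1 TGANTCA, the octamer ATGCAAAT, KLF GGGNGTGG, ETS CCGGAAGT or the CCAAT box CCAAT.
Stag1 (chr9:100643198-100643497, plus strand): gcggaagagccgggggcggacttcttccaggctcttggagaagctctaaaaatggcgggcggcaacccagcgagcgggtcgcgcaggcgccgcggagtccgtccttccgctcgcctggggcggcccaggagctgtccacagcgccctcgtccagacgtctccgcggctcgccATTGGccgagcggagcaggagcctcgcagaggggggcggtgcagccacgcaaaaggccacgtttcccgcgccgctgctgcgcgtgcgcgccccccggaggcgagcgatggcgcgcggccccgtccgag
Edem1 (chr6:108828391-108828690, plus strand): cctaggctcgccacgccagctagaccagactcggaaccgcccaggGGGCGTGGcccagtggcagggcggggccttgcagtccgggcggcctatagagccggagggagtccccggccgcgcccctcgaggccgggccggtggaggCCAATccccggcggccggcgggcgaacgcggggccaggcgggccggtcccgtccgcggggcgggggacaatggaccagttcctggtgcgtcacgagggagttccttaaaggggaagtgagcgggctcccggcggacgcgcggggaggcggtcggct
Chaserr (chr7:73558346-73558645, minus strand): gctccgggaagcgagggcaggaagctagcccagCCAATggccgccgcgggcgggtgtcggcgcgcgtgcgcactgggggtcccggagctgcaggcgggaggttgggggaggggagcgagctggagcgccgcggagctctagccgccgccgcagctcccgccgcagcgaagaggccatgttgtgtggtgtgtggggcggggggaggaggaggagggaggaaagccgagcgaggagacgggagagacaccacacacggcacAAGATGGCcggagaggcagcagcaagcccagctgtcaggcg
Gm46218 (chr10:29313368-29313667, minus strand): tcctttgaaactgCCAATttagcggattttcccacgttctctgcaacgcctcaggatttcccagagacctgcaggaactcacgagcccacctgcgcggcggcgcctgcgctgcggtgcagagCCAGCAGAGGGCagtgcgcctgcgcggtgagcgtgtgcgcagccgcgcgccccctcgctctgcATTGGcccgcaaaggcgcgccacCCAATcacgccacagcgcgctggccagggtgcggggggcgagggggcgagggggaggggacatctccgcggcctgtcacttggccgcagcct
Nabp2 (chr10:128409801-128410100, minus strand): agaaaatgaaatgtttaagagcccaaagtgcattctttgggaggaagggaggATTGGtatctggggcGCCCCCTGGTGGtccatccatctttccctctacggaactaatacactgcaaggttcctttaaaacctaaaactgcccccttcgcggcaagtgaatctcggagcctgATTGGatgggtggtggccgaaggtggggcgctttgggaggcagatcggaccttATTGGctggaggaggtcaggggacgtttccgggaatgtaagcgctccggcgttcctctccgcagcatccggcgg
Scg3 (chr9:75684007-75684306, minus strand): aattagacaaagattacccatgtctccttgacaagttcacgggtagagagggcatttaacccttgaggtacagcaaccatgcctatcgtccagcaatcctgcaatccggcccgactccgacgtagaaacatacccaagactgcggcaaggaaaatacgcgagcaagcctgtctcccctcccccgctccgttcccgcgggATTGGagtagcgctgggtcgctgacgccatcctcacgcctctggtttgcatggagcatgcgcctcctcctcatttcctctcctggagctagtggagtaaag
Nr4a1 (chr15:101266596-101266895, plus strand): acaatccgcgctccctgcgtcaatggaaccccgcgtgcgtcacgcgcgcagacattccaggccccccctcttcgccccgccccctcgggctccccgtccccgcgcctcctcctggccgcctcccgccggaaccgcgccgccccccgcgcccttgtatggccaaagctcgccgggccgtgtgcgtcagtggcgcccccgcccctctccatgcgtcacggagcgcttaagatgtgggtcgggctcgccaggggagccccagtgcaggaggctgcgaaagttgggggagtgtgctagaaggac

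A match is a description of letters and not a bound site. In the windows printed, Stag1 and Scg3 hold a CCAAT box on the opposite strand, Edem1 a KLF motif and a CCAAT box, Chaserr a YY1 motif and a CCAAT box, and Gm46218 and Nabp2 a CTCF core and 3 CCAAT boxes each. The Nr4a1 window has none of these letters, which says nothing of the factors themselves. Stag1 has 73.7% G+C and 43 CpG in its window, Edem1 76.0% and 38, and Nabp2 55.7% and 16.

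Over the 1550 start windows inside members, the median G+C content was 61.0% and the median number of CpG 19. These were close to the values at starts in always open regions at gene ends (10293 windows; 62.7% and 23.0) and above those at starts in other regions away from gene ends (2519 windows; 51.7% and 6.00). The CTCF core was in 2.13% of the members' windows, against 0.758% at gene ends, 1.47% in the other regions away from gene ends and 0.557% of all 32851 start windows in RefSeq. For lncRNA starts in members the share was 4.40%, or 21 of 477 windows. The 33 windows of members with the core lay in 27 members, and overlapping windows can share a match, as those of Gm46218 and Echdc1 do. The share with the AP-1 motif was 5.48% in members, 3.70% at always open gene ends and 12.8% in the other regions away from gene ends. Shares with the ETS motif (5.42%), the NRF1 motif (2.45%) and the YY1 motif (2.77%) lay between those at always open gene ends (9.56%, 4.47% and 5.10%) and those in the other regions away from gene ends (1.63%, 0.357% and 1.43%). KLF (22.1%), octamer (1.87%) and CCAAT (36.8%) shares also lay between those 2 sets. These windows represent only the members that hold a RefSeq start; the sequence of the other members was not analysed here.

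Members with a start differed from the remaining 4265 in width, strength and position. Their merged regions had a median width of 1212 bp against 915 bp, and 79.9% lay inside a protein-coding gene against 45.1%. An internal protein-coding start, held by 898 of the 1216, lies inside its gene, so their place follows from the split. A wide region is also more likely to hold a start. Ranked by fold among the 15359 regions open in every list, their mean rank over the 10 libraries had a median at the 46.9th percentile, against 32.1. The strongest members with an internal protein-coding start, by the lowest percentile over the lists, were those of Edem1, Rfx1, Scoc, Stag1, Lrif1 and Morf4l2. At Stag1 (chr9:100642314-100643877, inside the gene and 44.6 kb from its nearer end) the authors' fold was 12.8 and 9.57 in MEF, 10.8 and 10.4 at DAY3, 11.8 and 13.7 at DAY6, 13.5 and 14.2 at DAY9, and 15.0 and 13.4 in ESC. At Chaserr (chr7:73558142-73559210, 16.4 kb from Chd2, a chromatin remodeller gene) it was 15.7 and 12.9, 13.3 and 13.3, 15.4 and 16.2, 18.3 and 18.1, and 16.9 and 15.0 in the same order. Their percentile ranks stayed above 72 and 91 in every library.

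The share of regions away from gene ends was related to how many lists held the region. It was 95.7% of regions in 1 list, 92.4% in 5 lists, 76.3% in 9 lists and 35.7% in all 10. Read the other way, 65.1% of all merged regions within 100 bp of a gene end were open in every list, 6.94% of those at 1 to 2.5 kb, 2.87% of those at 10 to 50 kb and 1.32% of those beyond 100 kb. The share of regions away from gene ends that held a protein-coding start was 0.141% in 1 list, 3.48% in 9 lists and 16.4% in 10 lists, and for lncRNA starts 0.441%, 3.09% and 7.41%. Both rose most between 9 and 10 lists.

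**Figure D1:**
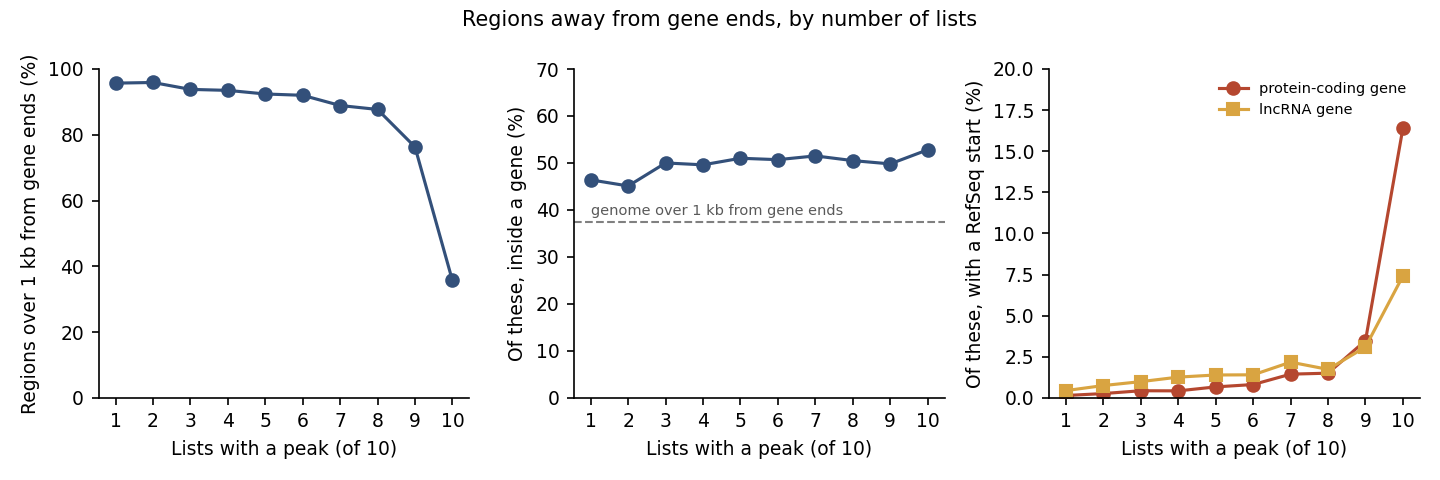
Regions by the number of lists with a peak (1 to 10): the percentage over 1 kb from gene ends, the percentage of these inside a protein-coding gene (dashed line, 37.4% of the genome over 1 kb from gene ends), and the percentage of these holding a RefSeq start of a protein-coding or lncRNA gene. The first falls to 35.7% and the third rises to 16.4% and 7.41% at 10 lists, while the share inside genes moves only between 45.1% and 52.8%.

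Members lay inside protein-coding genes in 2896 cases, or 52.8% (95% exact binomial interval 51.5 to 54.2%, counting error only). The same share was 47.4% of the other regions away from gene ends, and genes cover 37.4% of the genome over 1 kb from gene ends (988 of 2643 Mb). From 1 to 9 lists the share inside genes ran between 45.1% and 51.5%. Without the 1216 members with a RefSeq start it was 45.1%. Members with an internal protein-coding start lie inside a gene by construction, so this lower share follows in part from the removal. The other regions away from gene ends kept their starts (1.24% held one), so 45.1% and 47.4% are not like for like. Exons and introns were not separated here.

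Members lay closer to gene ends than the other regions away from gene ends. The median distance was 14.4 kb (quartiles 4.94 and 43.6 kb) against 31.9 kb, with 1386 members (25.3%) at 1 to 5 kb against 12.2%, and 595 (10.9%) beyond 100 kb against 24.5%. The nearest always open region at a gene end was at a median of 53.8 kb, against 93.8 kb, and 750 members (13.7%, against 7.90%) had one within 10 kb. The farthest members were at 2187 kb from Pik3c3, 2137 kb from Cntnap5b and 2102 kb from Pcdh9. At the region near Cntnap5b (chr1:102628080-102628468) the fold was 30.0 and 26.0 in MEF, 35.0 and 35.6 at DAY3, 31.9 and 36.9 at DAY6, 36.5 and 36.6 at DAY9, and 30.9 and 25.7 in ESC. It ranked above the 99th percentile in all 10 libraries. Its peak centres spread over 8 bp, and repeated sequence was not tested there.

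**Figure D2:**
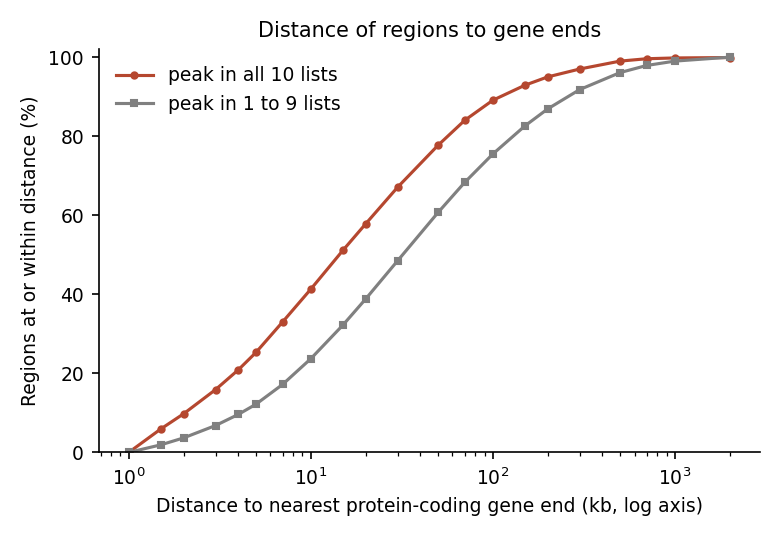
Cumulative percentage of regions over 1 kb from gene ends against the distance to the nearest protein-coding gene end (kb, log axis), for members and for regions with a peak in 1 to 9 lists. The members' curve lies to the left, with medians of 14.4 and 31.9 kb.

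Members were intermediate in width and strength. The merged regions had a median width of 978 bp (quartiles 730 and 1309 bp, range 239 to 9681 bp) and together covered 5.81 Mb, against 1224 bp at gene ends and 482 bp for the other regions away from gene ends. A merged region can only widen as lists are added, so widths were also taken from single peaks. In each library the members' peaks had a median width of 540 to 692 bp, gene-end peaks 771 to 929 bp and other peaks away from gene ends 395 to 459 bp, and this order held in 10 of 10 libraries. The median fold over background, the authors' value, was 4.71 to 8.10 at members, 6.35 to 11.2 at always open gene ends and 3.33 to 4.81 at the others, again in this order in 10 of 10 libraries. For members and gene ends the highest peak of each region was used, and for the others every peak. Asking for a peak in every list favours strong and wide peaks, so the place of members above the others follows in part from the rule. Within its own list the median member stood at the 67.4th to 78.7th percentile, and 73.2 to 90.2% of members had a peak in the upper 50% of the list. Their peaks made up 6.52 to 12.8% of a list's peaks, the highest shares being those of the shortest lists, DAY3.

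**Figure D3:**
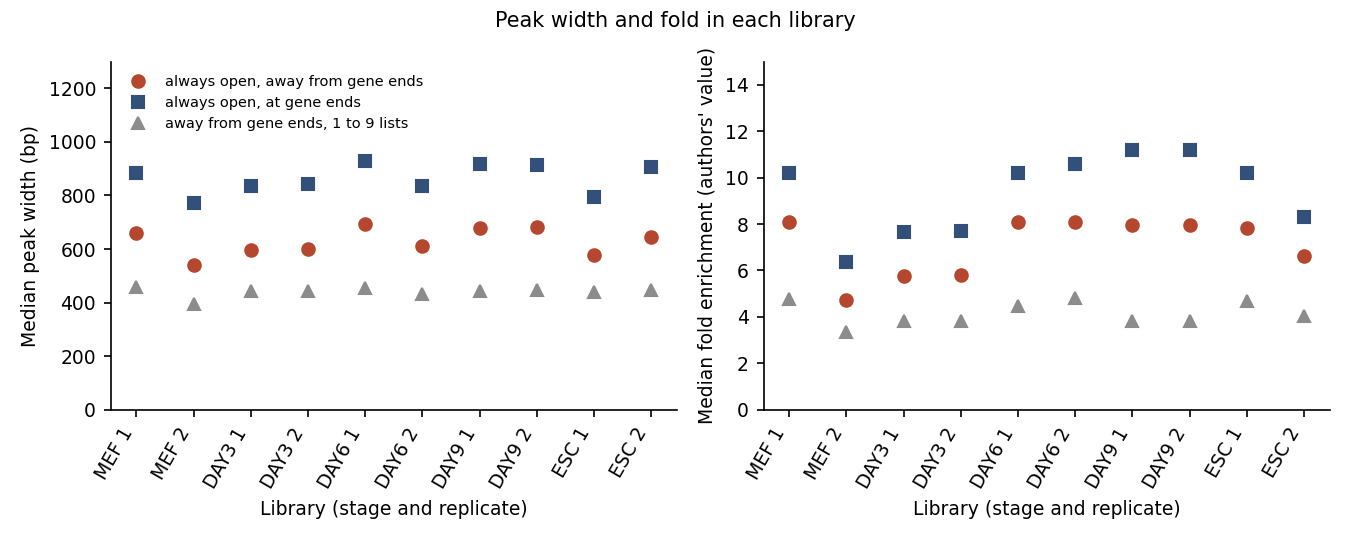
Median peak width (bp, left) and median fold enrichment as given by the authors (right) in each of the 10 libraries, for always open regions away from gene ends, always open regions at gene ends and regions away from gene ends with a peak in 1 to 9 lists. Members lie between the other sets in all 10 libraries, with widths of 540 to 692 bp and folds of 4.71 to 8.10. Their place above the regions with a peak in 1 to 9 lists follows in part from the rule. MEF replicate 2, which has the highest background pileup, has the lowest fold in every set.

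The stretch covered by a peak in every library, called the core here, had a median of 390 bp (quartiles 301 and 549 bp), or 45.1% of the region's width, against 623 bp and 53.1% at gene ends. In 214 members no base was covered by all 10 lists. The centres of the peaks spread over a median of 181 bp between libraries (quartiles 111 and 308 bp), against 204 bp at gene ends, and over at most 100 bp in 1169 members (21.3%) against 11.4%. The third widest member, in Sox6, a transcription factor gene, had no core: its peaks lay up to 2622 bp apart within 3915 bp that also hold starts of Sox6 and the lncRNA Sox6os.

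A small set of members had very low p-values in all libraries. In 44 members the −log10 p-value deposited by the authors was above 1000 in every list, compared with 3 always open regions at gene ends, and no region away from gene ends with a peak in 1 to 9 lists passed 1000 in any list. Their peak centres spread over a median of 5.50 bp and their cores covered 97.2% of the region, against 182 bp and 44.9% for the other 5437 members. Of these 44, 15 (34.1%) were inside genes. The highest was at chr12:97061311-97061923, 1140 kb from Galc, with a fold of 37.5 and 37.8 in MEF, 37.1 and 37.0 at DAY3, 37.6 and 36.8 at DAY6, 37.0 and 37.0 at DAY9, and 36.4 and 36.6 in ESC. The member 31.9 kb from Eea1 had folds of 36.6 to 38.1, the one 61.8 kb from Ccnh 13.7 to 14.5 and the one inside Myo3a 5.04 to 5.42. In each of these the folds of the 10 libraries lay within a narrow band. Low p-values did not always go with a high fold: the lowest rank in the set was 0.231. Peak centres coincided to the base (range 0 bp) in 5 members, among them those in Mrc1 and near Slc25a54 and Galnt18. The widest member, of 9681 bp, lay 21.3 kb from Col19a1 and had folds of 2.48 to 2.81, and the next, of 5798 bp, held the lncRNA AY036118 and had folds of 2.09 to 2.29. Reads that map to several places were not examined here, and the part of repeated sequence in these regions was not tested.

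**Figure D4:**
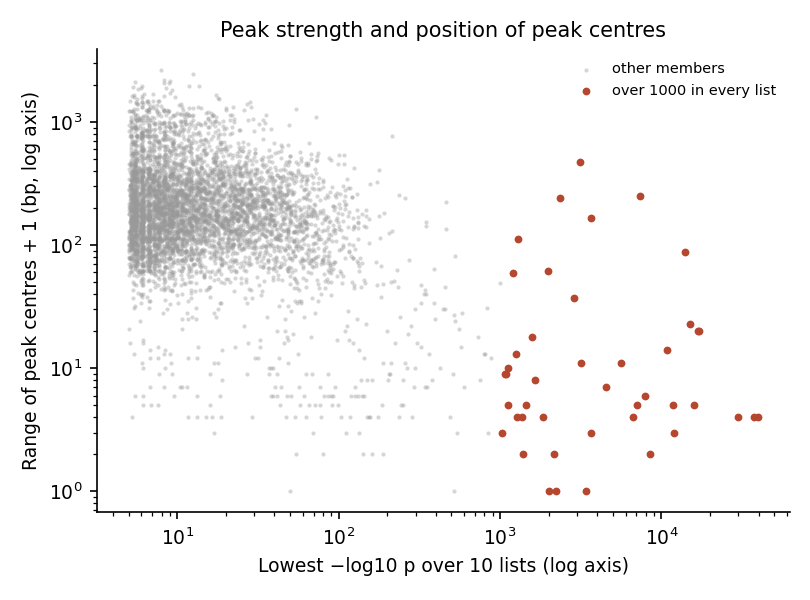
Each point is 1 of the 5481 members: the lowest −log10 p-value over the 10 lists (log axis) against the range of the peak centres over the libraries plus 1 bp (log axis). The 44 members above 1000 in every list lie on the right and their centres spread over a median of 5.50 bp, and the other members centre on 182 bp.

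Neighbouring members were a median of 179 kb apart (quartiles 50.3 and 536 kb), against 80.2 kb for always open regions at gene ends, which are more numerous. In 727 of 5460 cases (13.3%) the distance between centres was under 20 kb and in 707 above 1 Mb. Clusters were runs with gaps under 20 kb between neighbours, a measure other than these distances between centres. They numbered 545 and held 1291 members (23.6%). Of the clusters, 432 were pairs, 113 had at least 3 members and 19 at least 5. The largest held 24 members in 37.5 kb at chr9:3000079-3037582, with a median width of 430 bp, a median fold of 2.04 and 9 members above 300 in −log10 p in every list. The next held 10 members in 49.6 kb near Pdia4 at chr6:47739544-47789159 (median fold 5.99) and 8 members in 24.4 kb near Scaf8 at chr17:3006612-3030999 (2.64). Repeated sequence and reads that map to several places were not examined in these clusters. The cluster of 6 members inside Tex14, a gene of germ cell bridges, had a median fold of 9.19.

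On chromosome 13, 2 clusters were made of tRNA genes: all 7 members at chr13:21222018-21280063 overlapped a tRNA gene (7 genes), and all 6 members at chr13:23400635-23454176 held 10 tRNA genes. Altogether 101 members (1.84%) overlapped a tRNA gene, against 0.0417% of the other regions away from gene ends. Of 408 annotated tRNA genes, 154 (37.7%) overlapped members, 50 were in always open regions at gene ends, 83 in other regions away from gene ends and 110 (27.0%) in no region. All 20 amino acids were represented, with 16 of 25 leucine, 11 of 16 proline and 2 of 56 cysteine tRNA genes in members. Their median width was 1339 bp, 35 of them held 2 or more tRNA genes, and 4 of 101 (3.96%) lay inside a protein-coding gene. The strongest, n-TNgtt14 (an asparagine tRNA gene, chr5:149228778-149229699), had folds of 17.8 and 10.6 in MEF, 12.8 and 12.8 at DAY3, 18.1 and 17.0 at DAY6, 18.9 and 20 at DAY9, and 13 and 12.6 in ESC. It ranked above the 76th percentile in every library, highest at DAY9 and lowest in ESC.

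Other small RNA genes were few. Members overlapped small nuclear RNA genes in 0.657% of cases against 0.0192% in the other regions away from gene ends, snoRNA genes in 0.146% against 0.0620%, and lncRNA genes in 18.7% against 11.2%, while pseudogenes were at 1.24% and 1.15%. Within 100 bp of the start or end of a non-coding gene lay 664 members (12.1%). Of 1005 miRNA hairpins with a sequence in RefSeq, 11 overlapped a member, each a different one, and 9 of the 11 lay wholly inside it; Mir210 and Mir1191b crossed its edge. The mature sequences of 4 are given with the seed, bases 2 to 8, in capitals, because these members show the range of behaviour from high in every library to falling; no 2 of the 4 share a seed.
mmu-miR-210-3p (hairpin chr7:141221384-141221493, minus strand): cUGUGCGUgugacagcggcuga
mmu-miR-6481 (hairpin chr3:99199344-99199453, minus strand): cACUGAAAaugcuuagaug
mmu-let-7i-5p (hairpin chr10:122985640-122985724, minus strand): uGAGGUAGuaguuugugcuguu
mmu-miR-7671-3p (hairpin chr11:53763597-53763654, minus strand): aAGCGGGCaggcggagaaccac

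The members with Mir210, a miRNA induced by low oxygen, and Mir6481 ranked high throughout, at the 82.3rd to 97.9th and the 99.4th to 99.7th percentile. The Mir6481 member is 1 of the 44 above 1000 in −log10 p in every list (1272 to 1754), where repeated sequence was not tested. At Mir210 (2.80 kb from Rassf7) the fold was 18.8 and 12.0 in MEF, 10.3 and 12.4 at DAY3, 17.9 and 17.9 at DAY6, 19 and 18 at DAY9, and 14.3 and 13 in ESC. At Mirlet7i, of the let-7 family that is repressed by Lin28 in pluripotent cells, it was 4.74 and 4.93, 5.49 and 6.28, 5.93 and 7.54, 6.92 and 7.48, and 5.38 and 5.78 in the same order. Both MEF folds there lay below the other 8. By rank MEF did not stand apart, with 8.38 and 38.2 in MEF and 14.5 to 39.9 in the other libraries. At Mir7671 (5.50 kb from Irf1) the rank was 36.2 and 51.7 in MEF, 35.9 and 39.7 at DAY3, 7.28 and 10.7 at DAY6, 2.69 and 3.88 at DAY9, and 2.56 and 1.88 in ESC. The libraries of the last 3 stages all lay below those of MEF and DAY3.

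Protein-coding genes with a member inside numbered 2393 of 21887 (10.9%), and they were long, with a median of 62.4 kb against 14.7 kb for the others. Of these genes 1970 held 1 member, 423 at least 2, 96 at least 3 and 12 at least 5. Pde4d, a phosphodiesterase that degrades cAMP, held 7 members in 1302 kb, and Gse1 held 7. Dst, a cytoskeletal linker, Tex14, Nav1 and Nfia, a transcription factor, held 6 each. Per 100 kb the densest genes with 3 or more members were Tspan32, a tetraspanin (20.6), Kdm6b, a demethylase of histone H3 lysine 27 (13.7), and Baz2a, of a complex that silences ribosomal RNA genes (7.91).

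Being open in every list did not mean being equally open. Median folds differed between libraries, so each library's folds were turned into percentile ranks among the 15359 regions open in all lists. A member's rank ranged over a median of 42.0 points between its highest and lowest library (quartiles 29.1 and 57.3), over less than 10 points in 268 members (4.89%) and over more than 75 in 413. A region was called higher in ESC when both ESC libraries ranked above both MEF libraries and the mean rank was at least 25 points higher, and lower in the opposite case. By this rule 700 members (12.8%) were higher and 603 (11%) lower, beside 9.71% and 8.81% of all 15359 regions, and 8.01% and 7.59% of those at gene ends. No test was run on these counts. Leaving out a library of either stage loosens the rule and raised both: they were 986 and 812 without MEF replicate 1, 1002 and 903 without MEF replicate 2, 872 and 756 without ESC replicate 1, and 830 and 833 without ESC replicate 2.

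The 6 libraries between MEF and ESC took no part in that rule. In the members called higher the median rank was 20.1 and 14.3 in MEF, 29.9 and 30.5 at DAY3, 45.0 and 43.6 at DAY6, 44.7 and 44.8 at DAY9, and 64.1 and 61.5 in ESC. In those called lower the median rank was 63.4 and 59.1, 37.5 and 38.6, 29.6 and 29.3, 21.7 and 22.7, and 16.0 and 16.9. Choosing members by MEF and ESC pushes those medians apart, so intermediate values at the other stages follow in part from the choice and are a description. RefSeq starts were in 18.1% of the higher and 15.1% of the lower members, below the 22.2% of all members. Members with a tRNA gene were called higher in 1 of 101 cases (0.990%, against 12.8% of all members) and lower in 15 (14.9%, against 11% of all members).

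**Figure D5:**
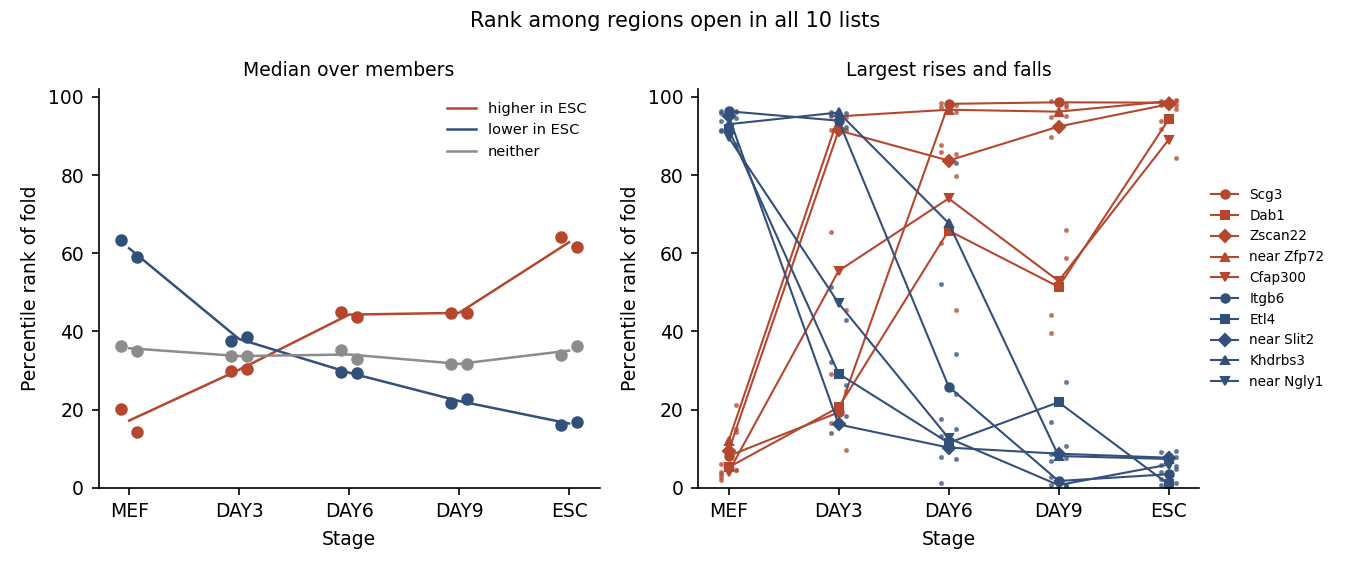
Percentile rank of fold among regions open in all 10 lists, by stage. Left, the median over members called higher in ESC, lower in ESC or neither (points, single libraries; lines, the mean of both libraries); right, the 5 members with the largest rise (red) and the 5 with the largest fall (blue) (lines, stage means; dots, libraries). Scg3 passes from 19.3 at DAY3 to 98.2 at DAY6, and Khdrbs3 falls between DAY6 and DAY9.

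The largest rises were in Scg3, Dab1, an adaptor of reelin signalling, Zscan22, a zinc finger gene, near Zfp72, another zinc finger gene, and in Cfap300, a gene of cilia assembly. In Scg3 (chr9:75683630-75684348, with the internal start printed above) the fold was 3.40 and 3.43 in MEF, 5.39 and 3.83 at DAY3, 18.6 and 19 at DAY6, 21.2 and 19.4 at DAY9, and 19.9 and 20.3 in ESC. MEF and DAY3 were low and the 3 later stages high, with no overlap. Near Zfp72 (8.15 kb away) it was 3.62 and 3.86 in MEF and already 13.2 and 13.1 at DAY3, then 17.4 and 17.7, 17.5 and 18.9, and 22.0 and 19.7. The rise there thus lay between MEF and DAY3. Bmpr1b, a receptor of bone morphogenetic proteins, had the next largest rise among members with a protein-coding start, with folds of 3.62 and 3.11, 5.23 and 6.06, 10.6 and 12.8, 15.1 and 13.1, and 14.1 and 13.9.

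The largest falls were in Itgb6, an integrin subunit, Etl4, near Slit2, a secreted guidance ligand, in Khdrbs3, an RNA binding protein, and near Ngly1, an enzyme that removes sugars from misfolded glycoproteins. The members in Etl4 and near Ngly1 had no core, and their peak centres spread over 462 and 835 bp. Their folds may therefore come from different peaks within the region. In Itgb6 (chr2:60688846-60689615) the fold was 17.9 and 12.6 in MEF, 13.3 and 12.3 at DAY3, 6.06 and 8.06 at DAY6, 3.48 and 2.75 at DAY9, and 3.40 and 3.46 in ESC. MEF and DAY3 were high, DAY6 intermediate and the last stages low. Near Slit2 (23.1 kb) it was 16.5 and 12.7 in MEF and 4.04 to 5.51 in all 8 later libraries. In Khdrbs3 it was 15.8 and 11.8, 13.8 and 13.6, 9.69 and 14, 4.68 and 4.54, and 4.68 and 3.56, so that the drop came between DAY6 and DAY9. At the internal start of Nr4a1 the rank was 78.4 and 73.0 in MEF, 48.1 and 52.7 at DAY3, 32.5 and 42.2 at DAY6, 36.5 and 31.9 at DAY9, and 20.4 and 22.9 in ESC.

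Genes of 8 lists were looked up for a member inside or within 50 kb, which 7858 of all 21887 protein-coding genes (35.9%) had. For pluripotency factors the count was 4 of 15 (26.7%), namely Sox2, Klf4, Nanog and Klf5, with 6 distinct members. A member 11.7 kb from Klf4 (chr4:55514568-55515487) ranked at 51.8 and 50.6 in MEF, 47.7 and 51.9 at DAY3, 83.9 and 68.3 at DAY6, 74.6 and 77.3 at DAY9, and 90.7 and 81.6 in ESC, so MEF and DAY3 lay below the later stages. The member inside Klf4 ranked at 0.479 and 20.4 in MEF and between 0.14 and 10.3 in the other libraries; the cassette carries Klf4 sequence, and its part in this peak was not tested. Of the members near Nanog, the one at 36.9 kb was called lower, with ranks of 74.9 and 55.0 in MEF and 41.0 and 35.0 in ESC, and the one at 3.95 kb was not, with 80.6 and 68.2 in MEF and 43.0 and 58.2 in ESC. The member near Klf5 was called higher, with 4.79 and 16.2 in MEF and 55.9 and 47.4 in ESC. The 11 other pluripotency genes, Pou5f1 among them, had no member within 50 kb.

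Of mesenchymal genes 5 of 12 (41.7%) had a member, including Zeb2 and Snai1, repressors of epithelial genes. The member of Zeb2 lay inside Zeb2. That of Snai1 lay inside Rnf114 and that of Thy1 inside Usp2, each with a start of the gene it lay in. The members counted for Col1a1 were nearest to Sgca and Ppp1r9b. None of the 6 members was called higher or lower, beside 12.8% and 11% of all members, and 6 are too few to compare with those shares. Of housekeeping genes it was also 5 of 12 (41.7%), with 10 distinct members, of which 3 were called higher and 1 lower. Of genes of chromatin looping it was 7 of 12 (58.3%), with 11 distinct members, 2 of them higher and 0 lower. A member 34.5 kb from Yy1 ranked at the 85.2nd to 95th percentile in all libraries, whereas one in Ripor1 near Ctcf ranked at 1.72 and 2.54 in MEF and 67.1 and 45.9 in ESC. A member 12.6 kb from Actb, the beta actin gene, had folds of 17.4 and 9.12 in MEF, 8.02 and 7.18 at DAY3, 4.94 and 5.71 at DAY6, 3.61 and 2.99 at DAY9, and 5.12 and 4.50 in ESC. MEF lay above the rest, and its rank fell by 76.4 points from MEF to ESC.

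Imprinted genes, expressed from 1 parental allele, had a member in 9 of 15 cases (60%), with 17 distinct members. The member at the start of Kcnq1ot1, the antisense lncRNA of the Kcnq1 domain, ranked between 62.8 and 86.5 in all libraries. The member 41.9 kb from Snrpn had folds of 5.83 and 2.57 in MEF, 3.17 and 3.35 at DAY3, 5.39 and 8.72 at DAY6, 6.84 and 4.42 at DAY9, and 14 and 11.4 in ESC, and the one inside Snrpn rose by 54.1 points of rank. Only ESC stood apart at the first. AP-1 genes had a member in 6 of 9 cases (66.7%), with 11 members, among them 3 near Fos. Of these 11, 1 near Atf3 was called higher and 1 near Jund lower, beside 12.8% and 11% of all members. They are too few to compare with those shares. The member near Jund ranked at 90.4 and 70 in MEF and 5.31 and 17.8 in ESC. Protocadherin genes (36 of 57, 63.2%) and Hox genes (16 of 39, 41.0%) stand close together, and their counts rest on 7 and 4 distinct members. All 4 of the Hox clusters' members lay in the Hoxa and Hoxd clusters. None was called higher or lower, beside 12.8% and 11% of all members, and 4 are too few to compare with those shares.

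What remains after starts and tRNA genes was the larger part: 4180 members (76.3%) held neither a RefSeq start window nor a tRNA gene. Members were found on every chromosome, making up between 2.23% (Y, 7 members) and 3.72% (chromosome 7) of a chromosome's regions away from gene ends, with 127 members on X.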

How the data were processed

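ATAC-seq peaks of 10 mouse libraries (build mm10) were used as deposited, 1 list a library, not pooled. The submitters' processing notes name Bowtie2 2.3.2, MACS2 2.1.1 and deepTools 2.3.6. Handling of duplicates, the transposase offset and read filters are not given in the sources used here. Each deposited peak has the authors' score, a fold, which is a linear ratio over local background, and −log10 p- and q-values; none was recomputed. The lists give no summit positions, so peak centres were used.

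Peaks of all lists that overlapped by at least 1 bp were merged, and distances were measured to RefSeq protein-coding genes (GRCm38.p6) with Python 3.11.15, numpy 2.4.6 and pandas 2.3.3. The fold of a region is that of its highest peak. Pileups for the noise ratio were recovered from fold and −log10 p where the latter was at most 300. The code was tested on simulated data. No list of problem regions was applied. No genome sequence was used, so motifs were searched only in RefSeq start windows. All comparisons are descriptions without tests.

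The members, the gene lists and the rule for named regions (highest lowest percentile, farthest, widest, most members, largest clusters, largest rise and fall, smallest rank and centre range, nearest to the 1 kb limit, nearest to non-coding gene ends) were chosen with earlier results of these data known. Other regions were named after their values were seen.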

Additional observations from a re-analysis of the deposited data

How the results depend on the processing

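Of 62 recomputed values outside the leaving-out of single libraries, 26 kept to within the spread used or 1.5 times the count and 36 moved. Since the rule asks for a peak in every list, stricter or looser lists change the count by construction: it was 2455 with the top 50% of each list, 3479 with lists of equal length (45497 peaks), 2818 where every list covers 50% of the region and 11236 with a peak in 1 library of every stage. The counts higher and lower in ESC were 272 and 227, 452 and 318, 274 and 219, and 1589 and 1479 in that order, and 325 and 239 with a shift of 40 points. The median spacing was 460, 299, 383 and 83.6 kb in the same order, 213 kb beyond 2.5 kb from gene ends, 259 kb beyond 5 kb and 233 kb with ends of genes of every type. The share inside genes was 56.3% with the top 50%, 54.8% with equal lists, 50.8% with 1 library of every stage, 49.9% beyond 2.5 kb, 48.3% beyond 5 kb and 57.4% with every gene type. The median width was 1077, 1024 and 872 bp with the top 50%, equal lists and 50% covered, 862 bp with 1 library of every stage, 943 bp with every gene type and 683 bp with windows of 500 bp around peak centres. Of 2 alternatives chosen after seeing the data, leaving out regions with a RefSeq start gave 45.1% inside genes, a width of 915 bp and a spacing of 236 kb, and leaving out those above 1000 in every list moved none of the 6 results. Leaving out each library in turn gave 5511 to 6410 members, 52.2 to 53.3% inside genes, widths of 965 to 978 bp, spacings of 151 to 179 kb, 702 to 1002 members higher and 607 to 903 lower, the highest counts and the smallest spacing coming without MEF replicate 2. Beyond what the construction of each alternative sets, the cause was not tested. No paired analysis was possible because no result comes from a test. The read depth of the libraries is unknown; MEF replicate 2 had the highest background pileup and the lowest folds, and a region missed in the shallowest or shortest list is no member.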
